A study of Mus musculus with 4 samples.

Results

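The 8 genes examined here encode parts of the dopamine signaling machinery of striatal projection neurons, and they were taken by symbol from the 32285 genes counted in 4 brain sections. They are *Drd1* and *Drd2* (the D1 and D2 dopamine receptors), *Adora2a* (an adenosine receptor), *Ppp1r1b* (DARPP-32, a phosphatase inhibitor controlled by protein kinase A), *Rgs9* (a regulator of G-protein signaling), *Pde10a* (a phosphodiesterase that breaks down cyclic AMP and cyclic GMP), *Gng7* (a G-protein gamma subunit) and *Adcy5* (an adenylyl cyclase). The sections were 10 µm thick, cut from fresh frozen brain of mice heterozygous for *Nf1* (Nf1+/-), and laid on Visium slides, whose barcoded spots bind polyadenylated RNA from the tissue on top of them. All 4 sections carried the same genotype, and no treatment is given for them and age and sex are given only for the study's mice as a whole, which were of both sexes, so no comparison of genotypes was made. Whether the sections, numbered 1 to 4 here, came from 4 mice is not given. The titles of sections 1 and 2 share a stem and those of sections 3 and 4 another, of unstated meaning. Sections may thus be tied in pairs, whereas every test here takes the 4 as separate and speaks for these sections only. The edgeR tests below also borrow the spread of all genes tested. Their p and SE can therefore be tighter than the spread of a single gene over the sections.

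Most neurons of the striatum are projection neurons that release GABA, and they fall into a pair of classes. Direct-pathway neurons carry *Drd1*, whose receptor couples to stimulatory G proteins and raises cyclic AMP, and they also make substance P and dynorphin. Indirect-pathway neurons carry *Drd2*, whose receptor lowers cyclic AMP, together with *Adora2a*, whose receptor raises it, and they make enkephalin. *Ppp1r1b*, *Rgs9*, *Pde10a*, *Gng7* and *Adcy5* act downstream of these receptors in both classes.

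On the GRCm38.p6 assembly, 4 of the genes share a chromosome with another, with *Ppp1r1b* (chr11:98348406-98357796) and *Rgs9* (chr11:109225348-109298181) on chromosome 11 and *Adora2a* (chr10:75316877-75334792) and *Gng7* (chr10:80948624-81014925) on chromosome 10. *Drd1* lies at chr13:54051183-54055658, *Drd2* at chr9:49340360-49408177, *Pde10a* at chr17:8525187-8986648 and *Adcy5* at chr16:35154494-35305743. RefSeq promoter windows were at hand for 6 of the 8 genes, the others being *Adora2a* and *Ppp1r1b*, and they gave 9 windows of the 250 bases before a transcript start. Because the 8 genes were high in the same spots, the 3 windows that end at the outer 5′ end of a gene are shown here on the strand of the gene, with capitals marking each GC box (GGGCGG, or CCGCCC on the other strand), the short motif bound by Sp1-type factors. They lie at chr13:54055659-54055908 (*Drd1*), chr11:109298182-109298431 (*Rgs9*) and chr10:81014926-81015175 (*Gng7*), all on the minus strand.
Drd1: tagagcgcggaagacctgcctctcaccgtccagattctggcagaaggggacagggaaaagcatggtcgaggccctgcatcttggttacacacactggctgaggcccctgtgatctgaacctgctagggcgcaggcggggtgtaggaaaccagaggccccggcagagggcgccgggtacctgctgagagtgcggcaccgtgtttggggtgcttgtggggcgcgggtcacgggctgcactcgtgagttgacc
Rgs9: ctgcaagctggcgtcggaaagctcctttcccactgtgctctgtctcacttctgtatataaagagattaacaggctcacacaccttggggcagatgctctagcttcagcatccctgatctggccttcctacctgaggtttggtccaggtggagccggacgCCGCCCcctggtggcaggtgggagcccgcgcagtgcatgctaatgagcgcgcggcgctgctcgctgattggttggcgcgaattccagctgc
Gng7: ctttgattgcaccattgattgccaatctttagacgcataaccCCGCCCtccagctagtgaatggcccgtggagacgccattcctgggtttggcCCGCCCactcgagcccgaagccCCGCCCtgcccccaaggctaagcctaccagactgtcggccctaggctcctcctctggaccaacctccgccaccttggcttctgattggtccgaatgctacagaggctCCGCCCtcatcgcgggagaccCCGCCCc
The *Drd1* window held no GC box, the *Rgs9* window held 1 and the *Gng7* window held 5. A GC box stood in 6 of the 9 windows, 1 window for each of the 6 genes, against 32.7% of 32851 RefSeq promoters of this length. The 9 windows were 56 to 78% G or C, against a median of 52.4% over those promoters, and the part of this in the match was not tested. TATAAA stood in 1 of the 9 windows (*Rgs9*; 12.4% of promoters), CCAAT in 3 windows of 3 genes (33.8%), and the cyclic AMP response element TGACGTCA in none (1.55%), each searched on both strands. These matches are letters in a window and were not tested for binding.

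Sections 1 to 4 held 1537, 2358, 2294 and 1431 spots of at least 500 unique molecular identifiers (UMIs), with medians of 14922, 15296.5, 8862.5 and 12232 UMIs per spot. Section 3 was the shallowest, and pairs of sections shared 427 to 1989 spot barcodes, which name positions on a slide and not cells. In the text, CPM are UMIs scaled to 1000000 UMIs over the spots summed.

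All 8 genes were measured in every section. *Drd1* had 1598, 2835, 1472 and 869 UMIs in sections 1 to 4, which gave 68.1, 76.6, 66.9 and 45.1 CPM (mean 64.2 ± 13.4, SD, n = 4 sections). *Drd2* had 63.6, 69.2, 59.4 and 46.7 CPM (59.8 ± 9.56). *Adora2a* had 77.1, 74.0, 73.6 and 68.7 CPM (73.4 ± 3.48). Over whole sections *Adora2a* thus varied least of the 8 genes, with a coefficient of variation of 4.75%, against 20.9% for *Drd1*. In the striatal-marker spots described below it varied most of the 8, at 15.2%, against 8.77% for *Drd1* and 1.71% for *Drd2*. *Ppp1r1b* stood at 640.9 ± 72.2 CPM, *Pde10a* at 238.9 ± 24.7, *Adcy5* at 220.3 ± 36.3, *Gng7* at 211.1 ± 40.2 and *Rgs9* at 149.5 ± 32.7. Section 4 had the lowest CPM of the 4 sections for all 8 genes.

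The share of spots with at least 1 UMI averaged 40.7% for *Drd1* (28.1 to 51.8% over the sections), 36.9% for *Drd2* (24.3 to 49.0%) and 38.5% for *Adora2a* (26.3 to 48.4%), and 88.2% for *Ppp1r1b* (80.6 to 95.1%). When spots of at least 5000 UMIs were thinned to 5000 UMIs each, which left out 72, 143, 427 and 207 shallower spots, the shares fell from 43.6 to 23.5% for *Drd1*, from 39.8 to 21.8% for *Drd2*, from 41.4 to 24.0% for *Adora2a* and from 92.3 to 74.9% for *Ppp1r1b*. Section 4 had the lowest share for all 8 genes before and after thinning (*Drd1* 16.1% after thinning, against 24.2 to 28.8% in sections 1 to 3), although section 3 was the shallowest. A UMI of these genes was not limited to striatal tissue. In spots with markers of upper cortical layers, 30.03% had a *Drd1* UMI (11.9 to 53.8% over the sections), 20.4% a *Drd2* UMI (5.93 to 35.2%) and 21.3% an *Adora2a* UMI (11.9 to 34.4%), as means of 4 sections. The highest *Drd1* share was that of section 1, from 26 spots. Medians were 13461.5 to 25420 UMIs per spot. These shares may hold free RNA from elsewhere in the section, which was not tested.

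To ask where the genes were high, spots were classed by marker lists that hold none of the 8 genes. A spot was called a striatal-marker spot when its UMIs of 8 striatal markers, *Scn4b*, *Rasd2*, *Ido1*, *Rarb*, *Sh3rf2*, *Actn2* and *Syndig1l* among them, were at least 2 times the number its depth predicts, at least 3 of the 8 were detected, and no other list scored higher. There were 215, 457, 322 and 216 such spots in sections 1 to 4 (14.0, 19.4, 14.0 and 15.1% of spots), and they held 16.2, 19.7, 16.4 and 19.0% of all UMIs. The classes were drawn from other genes of the same spots and not from positions, and a spot can hold several cell types, so more cells of a type and more RNA per cell cannot be told apart. In striatal-marker spots the summed striatal list stood at 3059 ± 147 CPM and the white-matter (myelin) list at 1421 ± 109, whereas the deep-layer (197 ± 23.3), upper-layer (222 ± 33.8), thalamic (32.3 ± 5.11), choroid plexus (27.2 ± 15.9), meningeal (20.7 ± 6.83), hippocampal (16.0 ± 1.13) and dopamine-neuron lists (13.6 ± 2.66) were lower.

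The 3 receptors were concentrated in these spots. *Drd1* stood at 149, 180, 167 and 152 CPM in the striatal-marker spots of sections 1 to 4, against 52.4, 51.2, 47.2 and 19.9 in all other spots. *Drd2* stood at 172, 179, 177 and 177 CPM against 42.7, 42.2, 36.4 and 16.2. *Adora2a* stood at 219, 196, 231 and 279 CPM against 49.7, 44.1, 42.8 and 19.3. The ranges did not overlap for any of the 3, and *Drd2* was nearly constant over the striatal-marker spots of the 4 sections (176 ± 3.02). Between 75.5 and 88.8% of striatal-marker spots had a *Drd1* UMI, 72.7 to 90.4% a *Drd2* UMI and 81.4 to 94.4% an *Adora2a* UMI, and the median such spot held 2 *Drd1* UMIs.

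The signaling genes shared by both pathways followed the same course. *Ppp1r1b* stood at 1743, 1700, 1731 and 1977 CPM in striatal-marker spots against 501, 455, 381 and 225 in other spots, and its UMIs per striatal-marker spot reached 116. *Pde10a* stood at 656, 677, 645 and 783 CPM against 178, 162, 140 and 79.0, and *Rgs9* at 369, 451, 444 and 379 against 108, 119, 102 and 41.4. *Gng7* stood at 478, 521, 545 and 488 CPM against 172, 178, 162 and 74.5, and *Adcy5* at 489, 566, 553 and 532 against 184, 180, 157 and 85.2. None of these ranges overlapped, and section 4 had the lowest level of every one of the 8 genes outside the striatal-marker spots but of none within them. The share of all genes whose ranges do not overlap is not given, for this comparison or the later ones.

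**Figure D1:**
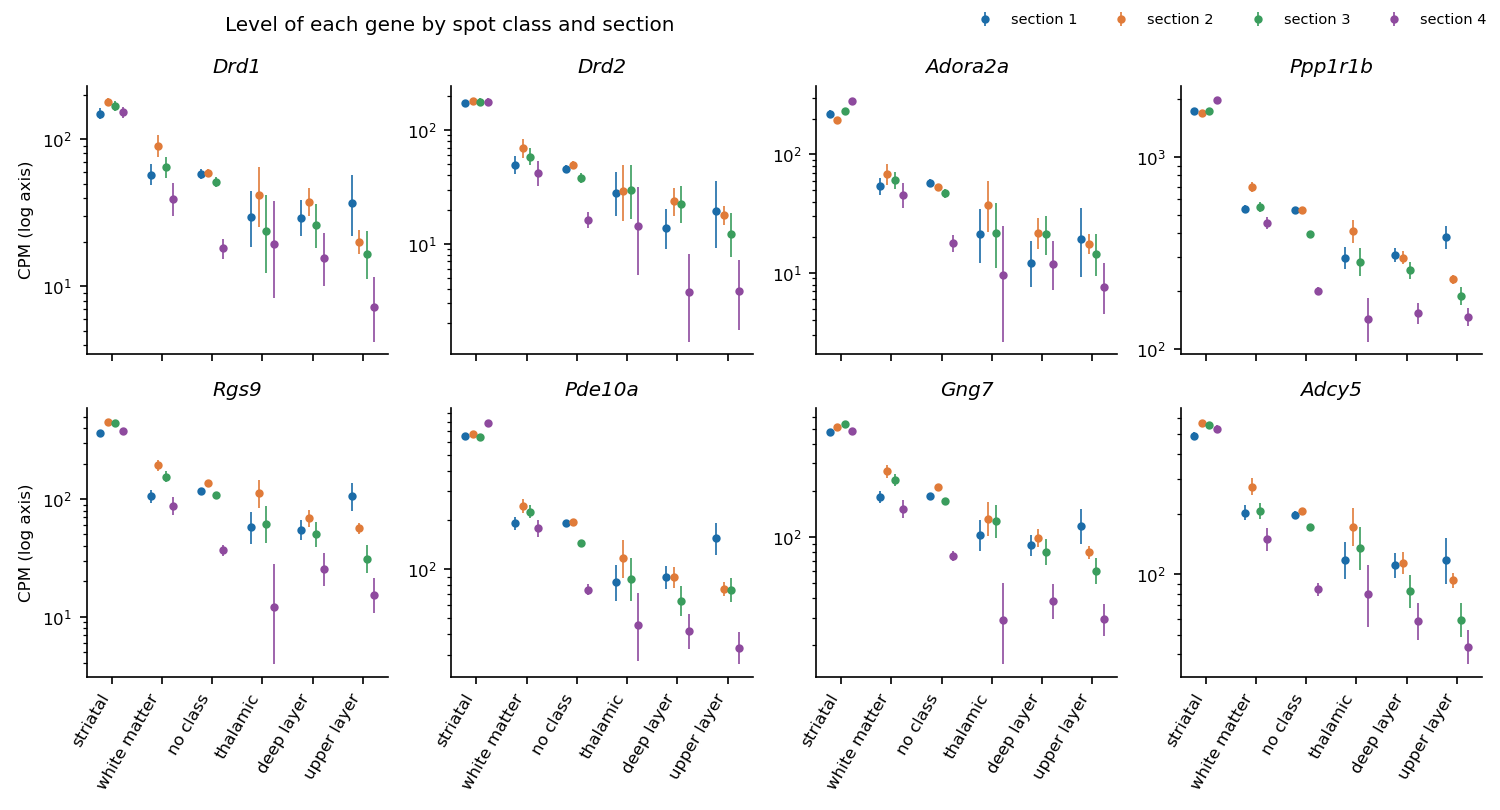
Level of each gene (CPM, log axis) in each spot class, with 1 point per section and bars for the exact 95% Poisson interval, which covers counting error only. For *Drd1*, the 4 striatal points sit between 149 and 180 CPM and every point of the other classes is at or below 90.6.

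All 8 genes were higher in striatal-marker spots than in the other spots by edgeR's quasi-likelihood test on UMIs summed per section, against 20.4% of 14215 genes called higher and 20.9% called lower with Benjamini-Hochberg adjustment over all of them. *Adora2a* rose most, by 2.74 ± 0.201 on the log2 scale (SE; 6.68-fold; adjusted p = 3.75e-08, edgeR), followed by *Drd2* at 2.55 ± 0.166 (5.84-fold; adjusted p = 1.05e-08, edgeR). *Drd1* rose by 2.13 ± 0.155 (4.36-fold; adjusted p = 3.42e-08, edgeR). They ranked 20, 30 and 60 by log2 fold change among the 14215 genes. *Pde10a* rose by 2.503 ± 0.172, *Ppp1r1b* by 2.40 ± 0.167, *Rgs9* by 2.38 ± 0.167, *Adcy5* by 2.03 ± 0.144 and *Gng7* by 2.01 ± 0.153, with adjusted p from 1.88e-08 to 5.39e-08 in edgeR. The median of the 8 log2 fold changes was 2.39, and that of all genes 0.0024. With libraries scaled to total UMIs, the median of all genes was -0.15 and the split of calls went from 2897 higher and 2966 lower to 1518 higher and 4677 lower, with all 8 genes still higher.

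The size of the difference depended on which other spots were used. On average 18.3% of the other spots had a striatal list at or above the level their depth predicts, and these held 42.7% (*Adcy5*) to 58.9% (*Adora2a*) of the gene's UMIs outside striatal-marker spots. With only other spots below that level as the comparison, an alternative chosen after seeing the data, *Adora2a* was 3.73 higher on the log2 scale, *Drd2* 3.36 and *Drd1* 2.87. Section 4 gave the highest log2 ratio of striatal-marker over other spots for all 8 genes, 2.93 for *Drd1* against 1.51 to 1.83 in sections 1 to 3 and 3.85 for *Adora2a* against 2.14 to 2.43. In section 4, striatal-marker spots held 64.2% of *Drd1* UMIs and 77.2% of *Adora2a* UMIs, against 35.5% and 46.0% in the section with the lowest share. Only 9.47% of the other spots of section 4 had a striatal list at or above the predicted level, against 20.2 to 22.8% in sections 1 to 3. The part of this in the higher values of section 4 was not tested.

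Outside the striatal-marker spots, the order of mean levels over the sections was alike over the genes, among classes found in all 4 sections. Among these, spots with white-matter markers came next for all 8, with 63.1 ± 21.3 CPM of *Drd1*, 54.9 ± 11.8 of *Drd2* and 56.9 ± 9.75 of *Adora2a*, and spots of no class followed at 46.7 ± 19.4, 37.4 ± 14.8 and 43.7 ± 17.8. The ranges of these 2 classes overlapped. In section 1 the order was the other way for *Drd1* (58.3 CPM in spots of no class against 57.5) and *Adora2a* (57.2 against 53.6). It was also the other way there for *Rgs9*, *Pde10a* and *Gng7*, but not for *Drd2*, *Ppp1r1b* and *Adcy5*. Spots with a striatal list at or above the predicted level remained outside the striatal-marker spots, so a class level need not come from cells of that class. How far such spots set the order of the classes was not tested. Spots with thalamic, deep-layer and upper-layer markers were lowest and overlapped with each other, with *Drd1* at 28.6 ± 9.68, 27.2 ± 9.17 and 20.2 ± 12.3 CPM and *Drd2* at 25.4 ± 7.33, 15.9 ± 9.24 and 13.3 ± 7.02 CPM. Striatal-marker spots exceeded upper-layer-marker spots by 11.1-fold for *Drd1* (4.07 to 21.2 over the sections), 19.96-fold for *Drd2* (8.91 to 46.4) and 18.8-fold for *Adora2a* (11.1 to 36.6). The SDs of these folds were 7.22, 17.8 and 12.1, and the counts below them were small. Upper-layer-marker spots held 10, 103, 22 and 9 *Drd2* UMIs in sections 1 to 4. Choroid plexus-marker spots numbered at least 20 in 2 sections only, sections 1 and 4. There *Drd1* averaged 61.2, *Drd2* 46.0 and *Adora2a* 55.1 CPM. In both sections *Ppp1r1b* (587 and 709 CPM) and *Rgs9* (124 and 197) were above the white-matter-marker spots (535 and 453 for *Ppp1r1b*, 106 and 87.9 for *Rgs9*). So were *Pde10a* (204 and 222 against 191 and 178), *Adora2a* (54.2 and 56.0 against 53.6 and 45.2) and *Gng7* (184 and 195 against 183 and 153). *Drd1*, *Drd2* and *Adcy5* were above them in only 1 of these sections.

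Among spots graded by the striatal list alone, *Drd1* and the indirect-pathway receptors parted at the top. In spots whose striatal list was under 0.5 times, 0.5 to 1, 1 to 2, 2 to 3 and at least 3 times the predicted level, *Drd1* averaged 19.5, 40.8, 130.3, 161 and 159.5 CPM over the sections. *Drd2* averaged 16.9, 25.5, 111, 161 and 211 CPM, and *Adora2a* 14.3, 33.5, 140.2, 208 and 279 CPM. *Drd1* was thus level over the last 2 steps, while *Drd2* and *Adora2a* went on upward. *Ppp1r1b* (1642 and 2072 CPM) and *Pde10a* (643 and 793) went on upward too, and *Rgs9* (396 and 436) and *Gng7* (497 and 524) less so. At the threshold, spots 2 to 2.5 times and 1.5 to 2 times the predicted level had 158 and 142 CPM of *Drd1*, and 196 and 166 CPM of *Adora2a*. These grades are a description and were not tested.

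Receptor balance was then set out as the log2 ratio of *Drd1* UMIs to the summed *Drd2* and *Adora2a* UMIs, which can be compared between spots and sections but does not say which transcript is more abundant per cell. Over all spots it was -1.05, -0.90, -0.99 and -1.36 in sections 1 to 4 (exact 95% binomial intervals, counting error only, -1.14 to -0.96, -0.97 to -0.84, -1.08 to -0.90 and -1.47 to -1.24). Section 4 lay below the other 3 sections, outside their intervals. In striatal-marker spots the ratio was -1.39, -1.06, -1.28 and -1.58 (intervals -1.53 to -1.25, -1.15 to -0.96, -1.42 to -1.15 and -1.72 to -1.44). Section 2 thus leaned most toward *Drd1* and section 4 least. The intervals of sections 1 and 4 overlapped, however, and those of sections 2 and 3 did so narrowly. *Drd1* against *Drd2* alone differed little there (-0.20, 0.0088, -0.08 and -0.22), whereas *Drd1* against *Adora2a* spread more widely (-0.55, -0.12, -0.46 and -0.87). The neuropeptides of the same neurons, *Tac1* (substance P) over *Penk* (enkephalin), gave -1.82, -1.62, -1.65 and -1.97 in striatal-marker spots. Section 2 was again highest and section 4 lowest, but the intervals of sections 2 and 3 overlapped (-1.66 to -1.58 and -1.70 to -1.60). Over all spots *Tac1* over *Penk* was highest in section 3 (-1.480, against -1.495 in section 2) and lowest in section 4 (-1.88).

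**Figure D2:**
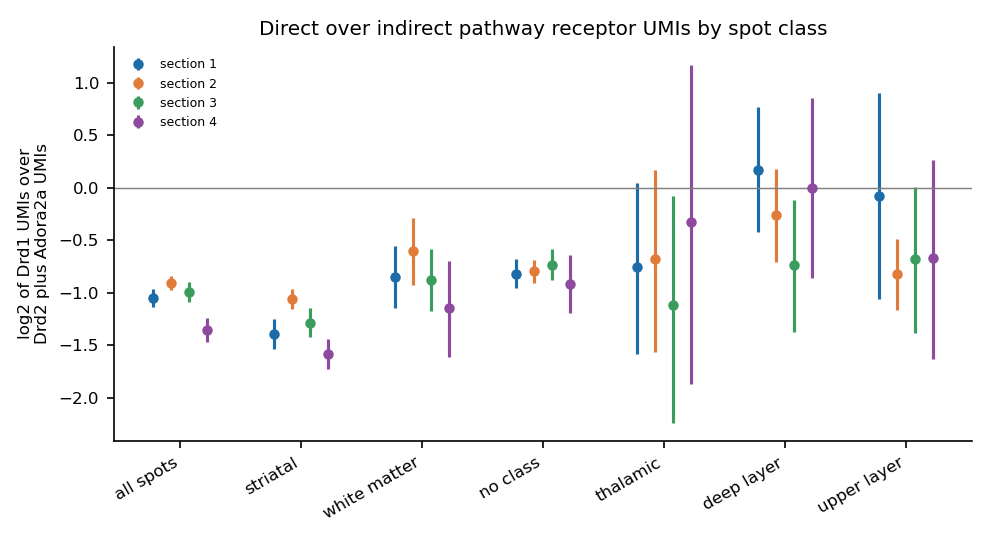
Log2 ratio of *Drd1* UMIs over summed *Drd2* and *Adora2a* UMIs by spot class, with 1 point per section and bars for the exact 95% binomial interval, which covers counting error only. The striatal points run from -1.58 to -1.06 and overlap the range of the white-matter and thalamic points, and the intervals in thalamic, deep-layer and upper-layer spots are wide.

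The balance shifted toward *Drd1* outside the striatal-marker spots. The striatal list that chose those spots itself moved with the balance. From 2 to 3 times to at least 3 times its predicted level, *Drd1* averaged 161 and 159.5 CPM. *Drd2* averaged 161 and 211 CPM there, and *Adora2a* 208 and 279. The part of this class rule in the shift was not tested. The ratio averaged -1.33 ± 0.219 in striatal-marker spots, -0.87 ± 0.223 in white-matter-marker spots, -0.81 ± 0.0751 in spots of no class and -0.21 ± 0.396 in deep-layer-marker spots. It was lower in striatal-marker spots in 4 of 4 sections in each of these comparisons, by 0.46 ± 0.0596 against white-matter-marker spots (0.41 to 0.54), by 0.51 ± 0.175 against spots of no class (0.26 to 0.67) and by 1.12 ± 0.531 against deep-layer-marker spots (0.55 to 1.58). An exact two-sided permutation test that flips the sign of each section's difference gave p = 0.125 in all 3, the smallest p that 4 sections allow, so p under 0.05 was out of reach. Of the 4 comparisons made, the other, deep-layer- against upper-layer-marker spots, gave 0.35 ± 0.328 toward *Drd1* (exact permutation p = 0.25), with 1 section the other way.

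Deep cortical layers were examined because *Drd1* is also known in cortical neurons, deep-layer corticothalamic neurons included. There were 96, 150, 128 and 104 deep-layer-marker spots in sections 1 to 4. All 8 genes were lower there than in the other spots without striatal-marker spots (edgeR; 7.96% of 13774 genes called lower and 7.72% higher), and so were all 8 striatal markers. Spots with a striatal list at or above the predicted level stayed in this comparison. On average they held 49.8% of the *Drd1* UMIs and 58.9% of the *Adora2a* UMIs outside striatal-marker spots. Their part in the lower levels of deep-layer-marker spots was not tested. *Drd1* and *Ppp1r1b* fell least, by 0.70 ± 0.114 on the log2 scale (adjusted p = 2.10e-04, edgeR) and by 0.69 ± 0.0539 (adjusted p = 2.42e-08, edgeR). *Adora2a* and *Drd2* fell most, by 1.32 ± 0.156 (adjusted p = 5.67e-06, edgeR) and by 1.21 ± 0.162 (adjusted p = 2.22e-05, edgeR). *Gng7*, *Pde10a*, *Rgs9* and *Adcy5* fell by 1.02, 1.06, 0.96 and 0.79. Without the section as a block, 6 of these 8 calls were lost (adjusted p from 0.0622 to 0.247, edgeR), the exceptions being *Adora2a* and *Pde10a*.

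Against upper-layer-marker spots, a comparison chosen after seeing the data, *Drd1* alone of the 8 was called in deep-layer-marker spots (edgeR; 6.27% of 10846 genes called higher and 7.05% lower). With calls in both directions counted, 1 of 8 genes is close to the share called over all genes. *Drd1* stood at 29.4, 37.7, 26.2 and 15.6 CPM in deep-layer-marker spots and at 36.6, 20.1, 16.7 and 7.20 CPM in upper-layer-marker spots. It was higher in 3 of 4 sections and lower in section 1, where only 26 upper-layer-marker spots gave 19 *Drd1* UMIs. The fitted difference was 0.68 ± 0.189 (adjusted p = 0.012, edgeR), against 0.37 ± 0.219 for *Drd2* (adjusted p = 0.330, edgeR) and 0.29 ± 0.208 for *Adora2a* (adjusted p = 0.440, edgeR). That *Drd1* differed from *Drd2* and *Adora2a* in this respect was not tested. The *Drd1* call was lost with DESeq2 (0.60, adjusted p = 0.356), without the section as a block (adjusted p = 0.222, edgeR) and without section 2 (0.43, adjusted p = 0.381, edgeR). Without section 1, *Ppp1r1b*, *Rgs9*, *Gng7* and *Adcy5* were called higher too (log2 0.30 to 0.45). The white-matter list moved with it, at 1493 ± 158 CPM in deep-layer- and 589.9 ± 33.3 CPM in upper-layer-marker spots with all 6 of its genes called higher, and its part in the result was not tested. None of the 6 striatal markers tested was called there (median log2 difference 0.0021).

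Striatal-marker spots were next split by partner genes, to ask whether the receptors follow the neuropeptides of their own pathway. For each spot, UMIs of the direct-pathway partners *Tac1*, *Pdyn* (prodynorphin), *Chrm4*, *Isl1* and *Eya1* were set against those of the indirect-pathway partners *Penk*, *Gpr6*, *Sp9* and *Gpr52*. The top and bottom tertiles of each section, 71, 152, 107 and 72 spots each, were called direct-leaning and indirect-leaning. These names are relative. Direct-leaning spots of sections 1 to 4 held 1218, 1656, 1943 and 1274 CPM of direct partners, against 1877, 2028, 1834 and 1753 of indirect partners. Direct partners were thus ahead in section 3 only. *Tac1* made up 86.5 to 89.5% of the direct partner UMIs and *Penk* 94.6 to 96.2% of the indirect ones, while *Chrm4*, the M4 muscarinic receptor, had at most 7 UMIs in the striatal-marker spots of any section. Because the partners define the groups, no test is given for them.

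*Drd1* was higher and *Drd2* and *Adora2a* lower in the direct-leaning spots of every section. *Drd1* stood at 175, 229.7, 215 and 223 CPM in direct-leaning and at 105, 135, 109 and 95.1 CPM in indirect-leaning spots of sections 1 to 4. *Drd2* stood at 125, 138, 104 and 103 CPM against 214, 221, 224 and 237. *Adora2a* stood at 159.5, 158, 158 and 173 CPM against 289, 238, 308 and 383. The ranges of the 2 groups overlapped for none of the 3, and the share of all genes without overlap is not given. The genes and partner lists were chosen with earlier results of these data known, so the p-values of this split are a description only. By edgeR's quasi-likelihood test, *Drd1* was higher by 0.88 ± 0.0725 on the log2 scale (adjusted p = 7.19e-15), *Drd2* lower by 0.90 (-0.90 ± 0.0717; adjusted p = 2.51e-15) and *Adora2a* lower by 0.87 (-0.87 ± 0.0642; adjusted p = 9.26e-17). Only 0.187% of 9648 genes were called higher and 0.187% lower, 18 each, and these counts include *Tac1*, *Pdyn*, *Penk*, *Gpr6* and *Sp9*, which set the groups.

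**Figure D3:**
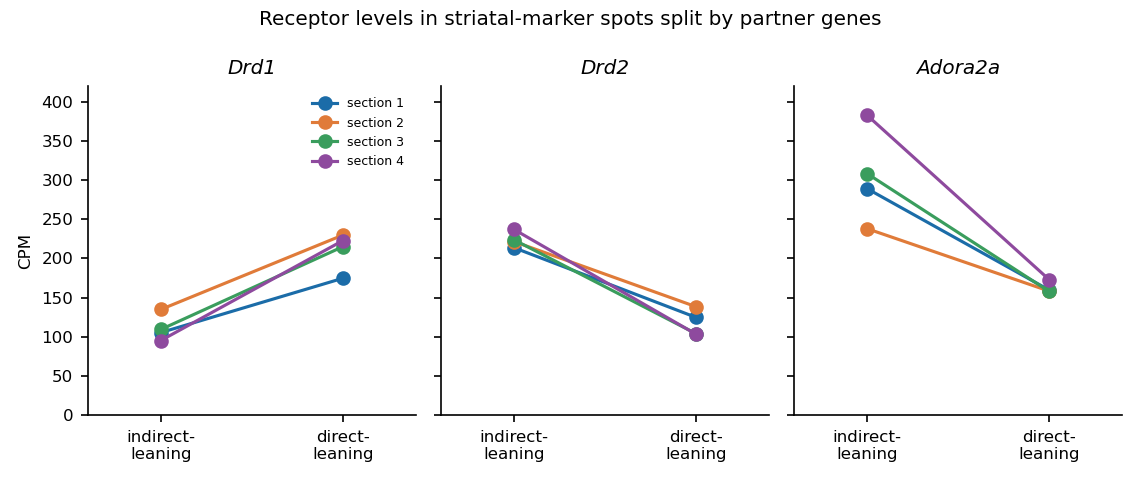
CPM of the 3 receptors in indirect-leaning and direct-leaning striatal-marker spots, with 1 line per section. All 4 lines go upward for *Drd1* (95.1 to 135 CPM on the left, 175 to 229.7 on the right) and downward for *Drd2* and *Adora2a*.

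The 5 shared genes gave no such split. The log2 differences were -0.03 ± 0.0342 for *Ppp1r1b*, 0.00076 ± 0.0486 for *Rgs9*, -0.04 ± 0.0401 for *Pde10a*, -0.04 ± 0.0438 for *Gng7* and -0.03 ± 0.0452 for *Adcy5* (SE; adjusted p from 0.929 to 0.998, edgeR), each with an SE of at most 0.0486 against differences of 0.87 or more in size for the receptors. *Ppp1r1b* stood at 1764, 1677, 1757 and 1933 CPM in direct-leaning and at 1746, 1725, 1716 and 2053 CPM in indirect-leaning spots. Median depth per spot was 17417, 15971, 11218 and 14808.5 UMIs against 17873, 15197.5, 10193 and 17061.5, and the white-matter list stood at 1440 ± 189 and 1507 ± 87.5 CPM. The summed striatal list was lower in direct-leaning spots in 4 of 4 sections (2758, 3001, 2909 and 3086 CPM against 2969, 3152, 3119.5 and 3389), and its part in the result was not tested. When *Tac1* and *Penk* were left out of the partner lists, *Drd1* was higher by 0.32 (adjusted p = 0.0155, edgeR) and *Drd2* and *Adora2a* lower by 0.63 and 0.45 (log2 -0.63 and -0.45; adjusted p = 2.27e-08 and 4.34e-06, edgeR). *Ppp1r1b* then passed the test, at -0.19 (adjusted p = 0.00908, edgeR).

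**Figure D4:**
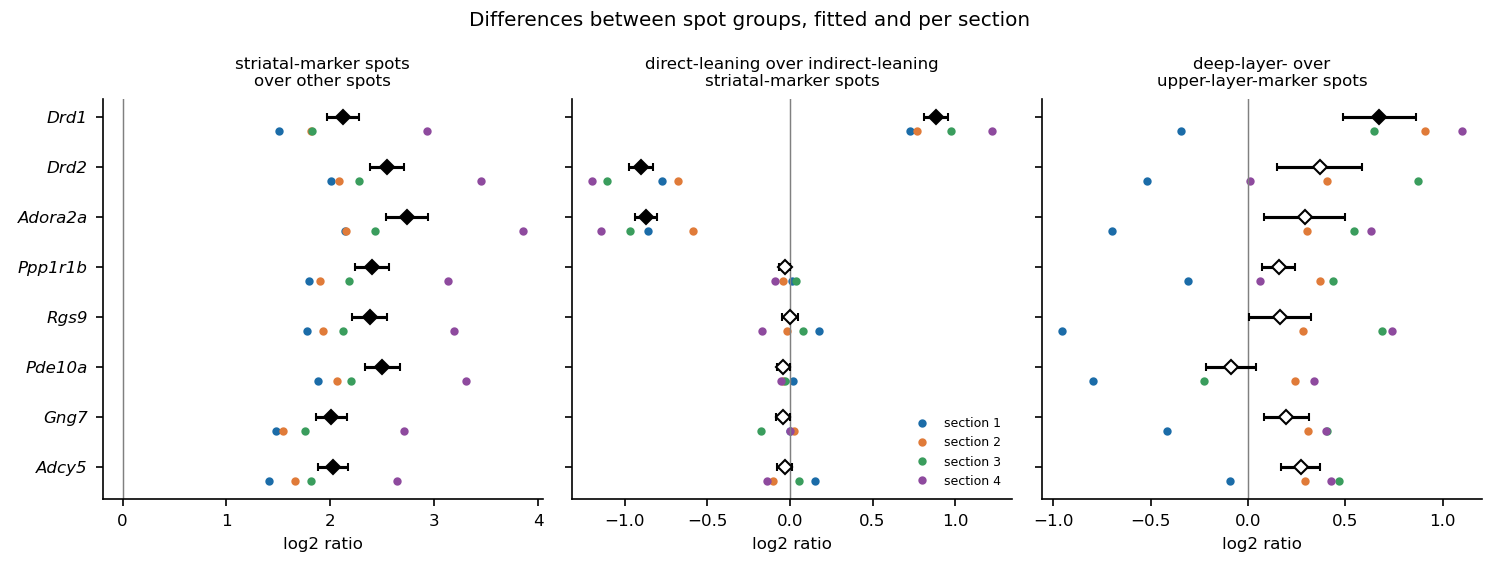
Log2 differences of the 8 genes in 3 comparisons of spot groups, with diamonds for the edgeR estimate, bars for its SE, filled diamonds for an adjusted p under 0.05 and small points for the ratio in each section. All 8 diamonds are filled on the left, only the 3 receptors in the middle, and only *Drd1* (0.68) on the right.

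Co-variation over spots is given as a description. Over all spots, the Pearson correlations of the 28 gene pairs, averaged over the sections on log2(1 + UMIs per 10000), ran from 0.34 (*Drd1* with *Drd2*) to 0.73 (*Ppp1r1b* with *Pde10a*), with a median of 0.54. These values share the section, its spread of tissue and the depth of each spot. With UMIs thinned to 5000 per spot the median was 0.37. Within striatal-marker spots the median was 0.08, and 0.027 after thinning. *Drd1* with *Drd2* (-0.15; -0.21 to -0.07 over the sections) and *Drd1* with *Adora2a* (-0.19; -0.22 to -0.15) were the negative pairs there, *Drd2* with *Adora2a* was positive (0.26; 0.21 to 0.37), and so was *Ppp1r1b* with *Pde10a* (0.27; 0.21 to 0.33). After thinning, *Drd1* with *Drd2* was -0.05, *Drd1* with *Adora2a* -0.11 (-0.13 to -0.0882, negative in all 4 sections) and *Drd2* with *Adora2a* 0.10 (-0.02 to 0.27), all weak values in sparse counts.

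**Figure D5:**
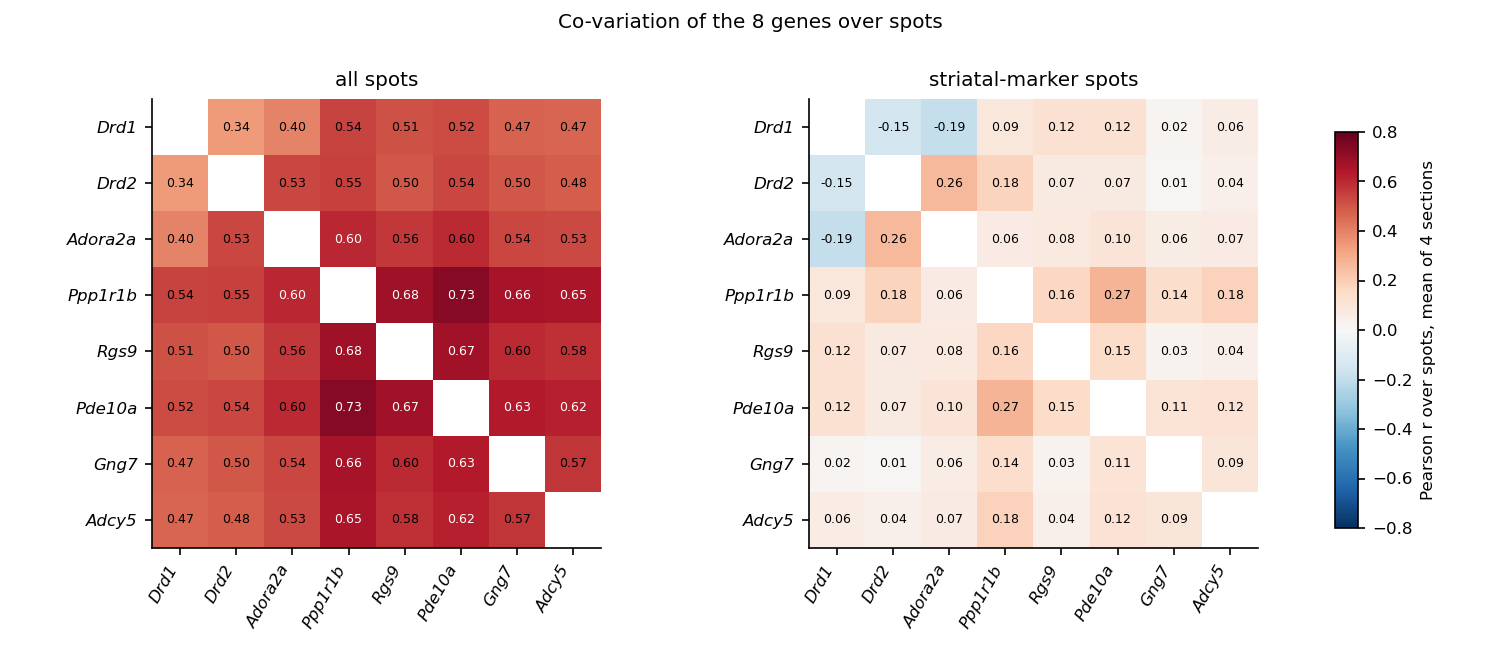
Pearson correlations over spots of each pair of the 8 genes (log2 of 1 + UMIs per 10000, mean of 4 sections), over all spots on the left and over striatal-marker spots on the right. The pairs run from 0.34 to 0.73 on the left, and on the right *Drd1* with *Drd2* (-0.15) and with *Adora2a* (-0.19) are below 0.

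*Drd1* with *Tac1*, and all 3 receptors with *Penk*, gave correlations larger in size than the receptors gave with each other in striatal-marker spots. *Drd2* and *Adora2a* with *Tac1* did not. *Tac1* (899 CPM) and *Penk* (3030 CPM) were also far more abundant in these spots than *Drd1* (162), *Drd2* (176) and *Adora2a* (231). How far sparse counts lower the correlations between receptors was not tested. In striatal-marker spots *Drd1* correlated with *Tac1* at 0.29 (0.22 to 0.34) and with *Penk* at -0.29 (-0.38 to -0.23). *Drd2* and *Adora2a* correlated with *Penk* at 0.40 (0.28 to 0.49) and 0.44 (0.32 to 0.59), and with *Tac1* at -0.17 and -0.16. Thinned to 5000 UMIs, *Drd1* with *Tac1* gave 0.14, *Drd1* with *Penk* -0.17, *Drd2* with *Penk* 0.24 and *Adora2a* with *Penk* 0.34. All 4 kept their sign in every section. Over all spots, among 9094 genes with at least 200 UMIs in every section, *Tac1* was the gene most like *Drd1* (mean r 0.55) and *Penk* the gene most like *Drd2* (0.60) and *Adora2a* (0.66). *Ppp1r1b*, *Pde10a* and *Penk* were each among the 5 genes most alike for 7 of the 8.

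Both receptors were often found in the same spot. In thinned striatal-marker spots (214, 456, 298 and 213), *Drd1* and *Drd2* were detected together in 20.6, 31.8, 30.2 and 22.1% of spots, where the product of their separate shares gave 22.3, 32.0, 31.2 and 24.3%. The observed share was below the product in 4 of 4 sections, by small margins. In each section the product lay within the exact binomial interval of the observed share, which covers counting error only. For *Drd1* with *Adora2a* the observed share was 23.8, 32.0, 35.2 and 31.5% against 23.6, 35.2, 37.4 and 34.1%. It was above the product in section 1 and below the product in sections 2 to 4. For *Drd2* with *Adora2a* it was 29.9, 36.4, 37.9 and 39.4% against 31.2, 35.5, 35.4 and 36.8%. The variance of thinned UMIs over the mean, which is 1 for counts spread by chance, was 1.13 ± 0.0866 for *Drd1*, 1.19 ± 0.1703 for *Drd2*, 1.21 ± 0.124 for *Adora2a* and 1.34 ± 0.201 for *Ppp1r1b*, and closest to 1 for *Gng7* (1.02 ± 0.0681).

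The wider pathway was followed in 28 further genes listed by role, of which 26 were tested in striatal-marker against other spots and 18 were called higher and 4 lower (median log2 difference 0.67), against 20.4% and 20.9% of all genes. With libraries scaled to total UMIs, 15 were higher and 6 lower, against 1518 higher and 4677 lower among all 14215 genes. The 28 genes were listed with earlier results of these data known, so their counts are a description only. Of the G-protein genes, 6 rose and 2 fell out of 8. *Gnal*, whose olfactory-type stimulatory alpha subunit couples the *Drd1* and *Adora2a* receptors to cyclase in the striatum, stood at 336, 384, 394 and 358 CPM against 159.6, 158, 146 and 89.2 (1.60 ± 0.114). *Gnas*, the stimulatory alpha subunit used elsewhere, fell by 1.42 ± 0.0598, with 467, 469.8, 492 and 453 CPM against 1335, 1324, 1442 and 1528. Both differences were past the threshold (edgeR). The ranges overlapped for neither gene, and the share of all genes without overlap is not given. *Gnb5*, the beta subunit that pairs with RGS9, rose by 1.27 ± 0.0712, and *Rgs7bp*, which anchors their complex at the membrane, by 1.36.

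Among cyclase and phosphodiesterase genes, 4 of 6 rose and 1 fell. *Pde7b* rose by 2.07 ± 0.188 and *Pde1b* by 1.99 ± 0.120, close to *Adcy5* and *Gng7*. The neuronal cyclase *Adcy1* fell by 1.03 ± 0.0874. Of the kinase and phosphatase genes 8 of 11 were called higher, and 5 with total-UMI scaling, under which *Prkacb* (0.00013), *Ppp2ca* (0.06) and *Ppp1cb* (0.08) lost their calls. The list was led by *Arpp21* (1.69 ± 0.0850), a phosphoprotein of striatal neurons regulated by cyclic AMP, while the protein kinase A subunit *Prkar1b* fell by 0.95 ± 0.0663. *Ppp1ca*, a catalytic subunit of the phosphatase that DARPP-32 inhibits, rose by 1.08, and *Prkaca* (-0.09) and *Cdk5* (-0.06) did not pass the test, although both were called lower with total-UMI scaling (-0.25 and -0.22). Of the other dopamine receptors, *Drd5* was tested and not called (0.47, adjusted p = 0.252, edgeR), *Drd4* had at most 2 UMIs in the striatal-marker spots of a section, and *Drd3* had 0 UMIs in all sections. Between direct- and indirect-leaning spots 24 of the 28 were tested, none was higher and 1 was lower, *Arpp19* (-0.19 ± 0.0365, adjusted p = 0.00172, edgeR). Of all 9648 genes tested there, 0.187% were called higher and 0.187% lower.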

How the data were processed

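The 4 fresh frozen Visium sections (all Nf1+/-) were analysed. Per the file headers, Space Ranger 1.3.1 was used, with mm10 given in the submitters' processing notes, and the values deposited by the authors are raw counts of UMIs, not normalized. Spot positions and region outlines were not used here.

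Spots under 500 UMIs (17, 1, 26 and 4) were left out, leaving 23472790, 37001945, 22012734 and 19261103 UMIs. A spot went to the marker list with the highest (observed + 1)/(expected + 1) UMIs, if at least 2, with at least 3 markers detected. The lists were striatal, deep-layer, upper-layer, hippocampal, thalamic, white-matter, choroid plexus, meningeal and dopamine-neuron genes. UMIs of each spot group were added up within a section and tested with edgeR 4.0.16 in R 4.3.3 (TMM, filterByExpr, quasi-likelihood, section as a block, Benjamini-Hochberg, threshold 0.05). The SE is the absolute log2 fold change over the square root of F. Spot groups of 1 section share its tissue, which pairs them, and their deviations correlated at 0.26 to 0.64. No section repeated another (chi-square over degrees of freedom 14.5 to 55.4). Correlations and thinning used Python 3.11.15, numpy 2.4.6, pandas 2.3.3 and scipy 1.17.1. Named genes are the 8 genes, the partner and pathway lists, and the 5 genes most correlated with each, with 1 marker gene not reported here. The members and lists were chosen with earlier results of these data known, which the p-values given for these genes do not take into account.

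On simulated counts with 200 genes changed by a log2 fold change of 1, the test called 176 of them for striatal-marker against other spots (14105 genes), 166 for deep-layer-marker spots (13612), 175 for the direct-leaning split (9480) and 179 for deep- against upper-layer-marker spots (10665), and 9, 6, 5 and 7 unchanged genes. Every simulated gene was given the same spread, and its change was the same in every section. These counts therefore do not cover genes of larger spread or differences that vary between sections. Alternatives were other spot minimums, class rules and splits, total-UMI scaling, DESeq2 1.42.0, no filter, no block and each section left out.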

Additional observations from a re-analysis of the deposited data

Results flagged for a closer look

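Of 120 sets of 4 section values, 6 had a section far from the other 3, and chance alone would give about 6. Adora2a had a log2 ratio of striatal-marker over other spots of 3.85 in section 4, against 2.14 to 2.43 in sections 1 to 3. Ppp1r1b stood at 1977 CPM in the striatal-marker spots of section 4, against 1700.2 to 1743 in the others. Tac1 over Penk was -1.88 (log2, all spots) in section 4, against -1.55 to -1.48. Drd2 stood at 14.5 CPM in the thalamic-marker spots of section 4, against 28.1 to 29.8, from 23 to 42 spots a section. Gng7 had a log2 ratio of direct- over indirect-leaning spots of -0.18 in section 3, against -0.000855 to 0.03. Gng7 had a log2 ratio of deep-layer- over upper-layer-marker spots of -0.41 in section 1, against 0.31 to 0.40. Of these, 4 lie in section 4, 1 in section 3 and 1 in section 1, and their causes were not tested.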

How the results depend on the processing

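In striatal-marker against other spots, the 8 genes were higher and past the threshold under all 14 alternatives, with Drd1 from 1.64 to 2.87 and Adora2a from 2.33 to 3.73 (log2). The counts of all genes moved with total-UMI scaling (1518 higher, 4677 lower) and with a striatal ratio of at least 3 (1910 higher), and lay at 2229 to 2532 higher and 2386 to 2737 lower with 1 section left out.

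In deep-layer-marker against other spots, without the replicate block Drd1 (-0.70, adjusted p = 0.247, edgeR), Drd2 (-1.20, 0.107), Ppp1r1b (-0.69, 0.127), Rgs9 (-0.96, 0.115), Gng7 (-1.01, 0.0622) and Adcy5 (-0.79, 0.0879) were no longer called. With upper-layer-marker spots as the other group, 7 reversed, Drd1 (0.68), Drd2 (0.37), Adora2a (0.29), Ppp1r1b (0.16), Rgs9 (0.17), Gng7 (0.20) and Adcy5 (0.27), and Pde10a stood at -0.0856. Genes called higher and lower were 702 and 524 with DESeq2, 353 and 307 without the replicate block, 358 and 424 at a ratio of at least 3, 680 higher against upper-layer-marker spots, and 694 to 972 higher and 679 to 975 lower with 1 section left out, lowest without section 3.

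In the direct- against indirect-leaning split, Drd1, Drd2 and Adora2a kept their calls under all 11 alternatives (0.32 to 0.98, -1.02 to -0.63 and -0.996 to -0.45). Without Tac1 and Penk, Ppp1r1b was called (-0.19) and 29 genes passed upward and 42 downward, against 4 and 5 with DESeq2, 5 and 4 without the replicate block, and 5 to 22 and 6 to 18 with 1 section left out, falling without section 2 (5 and 6) and section 3 (6 and 8). The uncalled Rgs9 (-0.0457 to 0.0467 with 1 section left out; -0.0457 without section 1 and -0.0211 without section 3) and Adcy5 (-0.0828 to 0.0231 with 1 section left out, -0.14 to 0.0231 over all 11; 0.0231 without section 2 and 0.000594 without section 4) changed sign.

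In deep- against upper-layer-marker spots, Drd1 lost its call with DESeq2 (0.60), without the replicate block (0.68, adjusted p = 0.222, edgeR) and without section 2 (0.43), and ranged from 0.43 to 0.88. Without section 1, Ppp1r1b (0.30), Rgs9 (0.45), Gng7 (0.35) and Adcy5 (0.37) were called and Pde10a turned to 0.13. Their ranges with 1 section left out were 0.0407 to 0.30, 0.0348 to 0.45, 0.10 to 0.35, 0.22 to 0.37 and -0.31 to 0.13. Counts were 300 and 321 with DESeq2, 389 and 436 without the replicate block, and 487 to 761 and 531 to 810 with 1 section left out.

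The mean log2 ratio of Drd1 to Drd2 plus Adora2a was -1.07, and -1.33 in striatal-marker spots, 0.0909 against Drd2 alone and -0.22 against Adora2a alone. The median correlation per section averaged 0.549, and 0.378 after thinning, 0.0989 in striatal-marker spots and 0.0524 at a striatal ratio of at least 3. Thinning also lowered the 8 shares of spots with a UMI. Depth limits the receptors' values in the sparse classes, with 8 to 22 Drd1 UMIs a section in thalamic-marker spots and 17 to 116 in deep- and upper-layer-marker spots.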
